A study of Mus musculus with 4 samples.

Results

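Splicing factor and RNA helicase genes were followed through ATAC-seq peaks in mouse CD8+ T cells that had received a Prdm12 guide. The genes were taken from the GRCm38 RefSeq annotation by symbol: protein-coding genes whose names begin with Srsf, Sf3, Snrp, Hnrnp, U2af, Prpf, Ddx or Dhx, or with Rbm and a number. This gave 160 of 21900 protein-coding genes, in 9 subfamilies. A peak was assigned to a gene when it lay within 1000 bases of either end of the gene span. By this rule 49 of the 160 genes had a peak, 1 peak each, out of 3187 peaks in the deposited table.

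The tested cells were labelled Prdm12-ko and had been electroporated with Cas9 protein carrying the sgPrdm12 guide (2 libraries). The reference cells were labelled Prdm12-wt, with the guide sgNTC named in the treatment protocol, although the series' design text describes the control cells as not edited (2 libraries). Both groups came from spleens of OTI:Cas9 mice, so both share that background, and both carry the label RNP. By the labels the replicate number is also the batch number, and no label ties replicates to separate animals, so errors describe the spread between libraries, which may be technical. The mice's age is not given in the labels. The libraries held 29043 and 20427 reads in the peaks for sgPrdm12, and 28749 and 58068 for sgNTC. Raw read counts given below are not scaled for this difference in depth. No listed peak lay within 1000 bases of Prdm12, so the edit could not be checked. None of 25 marker genes of CD8, CD4, B, myeloid and NK cells had a listed peak either, Cd8a, Cd8b1 and the Cd3 genes included, so the labelled cell type could not be checked against its markers.

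ATAC-seq uses the Tn5 transposase to cut and tag DNA that is not wrapped in nucleosomes, so peaks mark open regulatory DNA and give no measure of transcription. Splicing is carried out by small nuclear ribonucleoproteins that assemble on each intron. Sm proteins form the ring around their RNAs, U2AF reads the 3′ splice site, the SF3 complexes hold the branch point, and many PRPF proteins act in later complexes. SR proteins and hnRNPs decide which sites are used, and DEAD- and DEAH-box helicases remodel the RNA between steps, in splicing and also in ribosome assembly, export and decay. In T cells, alternative splicing is known to change on activation, with the receptor phosphatase CD45 as the classical case.

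The 3 promoters below are shown because they lie under the highest peaks, by mean scaled reads, of 3 different subfamilies among tested peaks with a RefSeq promoter entry. Each is the GRCm38.p6 RefSeq window from 250 bases before to 50 bases after the start site, on the plus strand, written 5′ to 3′. Capitals mark the matches to 8 short motifs searched on both strands. Hnrnpa1 lies at chr15:103240147-103240446, Ddx54 at chr5:120612880-120613179 and Sf3a2 at chr10:80798485-80798784.
Hnrnpa1: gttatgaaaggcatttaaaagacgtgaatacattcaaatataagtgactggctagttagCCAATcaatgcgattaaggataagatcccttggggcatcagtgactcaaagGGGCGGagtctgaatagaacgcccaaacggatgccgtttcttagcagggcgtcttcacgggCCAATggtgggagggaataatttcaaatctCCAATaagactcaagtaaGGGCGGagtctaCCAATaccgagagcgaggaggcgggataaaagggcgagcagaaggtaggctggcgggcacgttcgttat
Ddx54: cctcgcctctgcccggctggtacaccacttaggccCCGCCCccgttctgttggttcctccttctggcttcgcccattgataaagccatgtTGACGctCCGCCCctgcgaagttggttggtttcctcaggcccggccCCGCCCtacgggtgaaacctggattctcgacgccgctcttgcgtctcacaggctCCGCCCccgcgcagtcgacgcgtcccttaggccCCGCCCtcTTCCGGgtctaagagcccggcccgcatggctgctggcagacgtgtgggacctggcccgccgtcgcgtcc
Sf3a2: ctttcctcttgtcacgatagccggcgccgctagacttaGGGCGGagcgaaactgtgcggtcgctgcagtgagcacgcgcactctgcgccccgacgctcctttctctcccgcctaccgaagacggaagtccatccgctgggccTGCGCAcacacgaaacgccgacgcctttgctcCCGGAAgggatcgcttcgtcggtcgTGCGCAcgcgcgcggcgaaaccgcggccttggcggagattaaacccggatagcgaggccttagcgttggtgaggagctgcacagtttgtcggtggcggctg
The peak covered 263 of the 300 bases at Hnrnpa1 and all 300 at Ddx54 and Sf3a2.

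The 3 windows carried different matches. Hnrnpa1 had 4 CCAAT boxes (CCAAT) and 2 GC boxes (GGGCGG), in a window of 48.3% G and C with 16 CpG. Ddx54 had 5 GC boxes on the minus strand, 1 ETS core (CCGGAA) and 1 CRE-type match (TGACG), in a window of 67.7% G and C. Sf3a2 had 2 NRF1-type matches (TGCGCA), 1 ETS core and 1 GC box, with 41 CpG. The other motifs searched were a YY1-type match (GATGGC), the E-box (CACGTG) and the TATA box (TATAAA), and none of the 3 windows held them. A match is a run of letters, not a measured site, and its absence says nothing about the factor.

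Over the list, promoter windows were found for 45 of the 49 genes with a peak (not for Hnrnpul2, U2af2 and Ddx39a, among others) and for 137 of all 160, with the first listed window taken for each gene. The CRE-type match was in 29 of these 45 windows (64.4%). It was in 42.4% of 92 windows of members without a peak, in 40.5% of 2086 windows of all genes with a peak and in 23.8% of all 17492 windows. The CCAAT box was in 60.0% of the 45 windows, against 46.4% for all genes with a peak and 39.0% overall. The NRF1-type match was in 33.3%, against 24.9% and 10.1%, and the ETS core in 42.2%, against 37.4% and 19.1%. The GC box was in 68.9%, against 73.2% and 46.3%. The E-box was in 17.8%, against 11.5% and 7.90%. The YY1-type match was in 13.3%, against 15.4% and 13.5%, and the TATA box in 8.89%, against 5.23% and 13.3%. In the 92 windows of members without a peak the CCAAT box was in 42.4%, the NRF1-type match in 17.4% and the ETS core in 40.2%. There the GC box was in 56.5%, the E-box in 8.70%, the YY1-type match in 18.5% and the TATA box in 10.9%. The observed over expected CpG ratio had a median of 0.97 in the 45 windows, 0.87 in members without a peak, 0.86 in all genes with a peak and 0.58 over all genes. These shares are descriptions with no test.

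**Figure D1:**
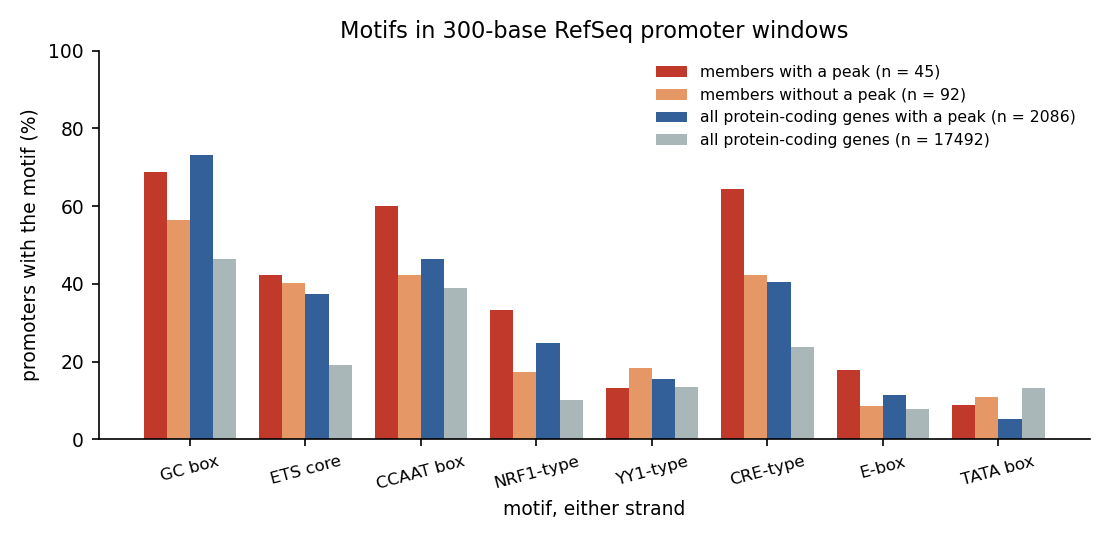
Share of 300-base RefSeq promoter windows (y axis, percent) that hold each motif on either strand (x axis), in 4 sets of genes; 1 window a gene. The bars for splicing factor and helicase genes with a peak stand at 64.4% for the CRE-type match and 60.0% for the CCAAT box. All genes with a peak stand at 40.5% and 46.4%, and all protein-coding genes at 23.8% and 39.0%. For the GC box the members with a peak stand lower than all genes with a peak, at 68.9% against 73.2%.

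Peaks were listed at 30.6% of the splicing factor and helicase genes, against 11.4% of all protein-coding genes. By subfamily the share was 5 of 11 for Srsf, 2 of 9 for Sf3, 3 of 12 for Snrp, 11 of 21 for Hnrnp, 2 of 3 for U2af, 4 of 13 for Prpf, 7 of 38 for Rbm, 11 of 37 for Ddx and 4 of 16 for Dhx. Every subfamily therefore stood above the share of all genes, from 18.4% in Rbm to 66.7% in U2af; U2af has 3 genes in all. The other 111 genes had no listed peak. Among these were Sf3b1, which encodes the branch point subunit of SF3b, U2af1, the small U2AF subunit, and Prpf8, the core scaffold of the spliceosome. Hnrnpll, a regulator of CD45 splicing in T cells, and Ddx58 and Dhx58, the RIG-I-like sensors of viral RNA, had none. The table is sparse, so a gene without a listed peak is not shown to be closed.

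**Figure D2:**
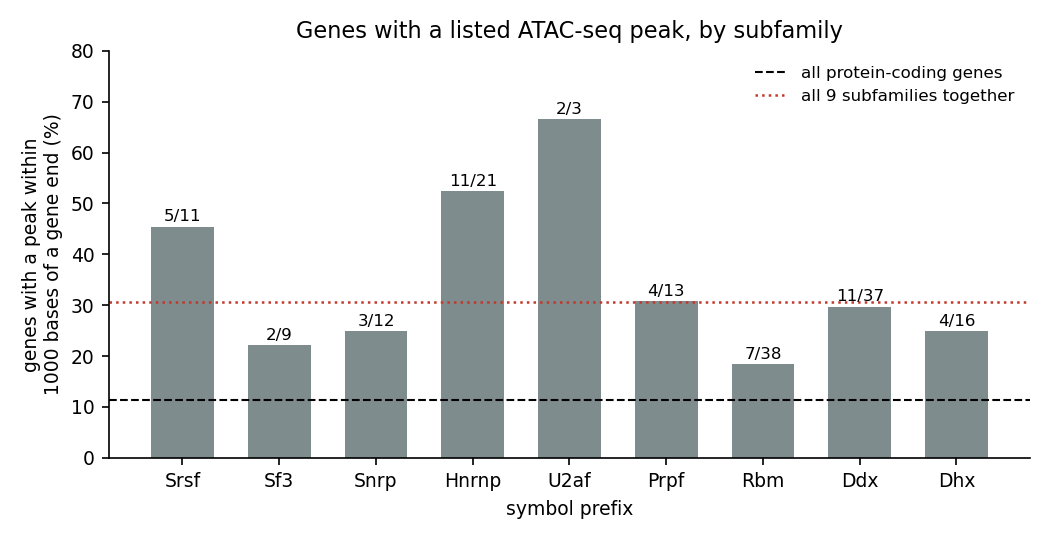
Percentage of genes with a listed peak within 1000 bases of a gene end (y axis) for each symbol prefix (x axis), with the number of genes above each bar; the dashed line is the 11.4% of all protein-coding genes and the dotted line the 30.6% of the 160 genes together. All 9 bars stand above the dashed line.

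These were start site peaks, and many were shared. All 45 peaks whose gene had a promoter entry were nearer to the start than to the far end of the gene, and 34 (75.6%) covered a start site, against 67.1% of 1698 gene-end peaks with an entry. Of the 49 peaks, 24 (49.0%) also lay within 1000 bases of an end of another protein-coding gene, against 524 of 1983 gene-end peaks (26.4%). These shares are not like for like. The 49 peaks were reached through a list of genes, so a shared peak had more than 1 way to enter. That raises the share of shared peaks, while the 1983 peaks were counted once each. In 16 of the 19 shared peaks for which both genes had promoter entries the genes ran on opposite strands from the peak (84.2%, against 77.6% of 393 such peaks in the table). Reads in a shared peak cannot be assigned to 1 of the genes.

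Hnrnpa1 and Hnrnpa2b1, which encode closely related core hnRNP proteins, each shared a peak with a gene of the heterochromatin protein 1 family. The Hnrnpa1 peak (chromosome 15, 103239611 to 103240409) covered the Hnrnpa1 start and lay within 1000 bases of an end of Cbx5, and the Hnrnpa2b1 peak (chromosome 6, 51470136 to 51470404) lay as near to an end of Cbx3. Among the splicing neighbours, Srsf7 shared its peak with Gemin6, a subunit of the complex that loads Sm rings, at the far end of Gemin6. Other shared peaks were those of Srsf2 with Mfsd11, Sf3a2 with Plekhj1, Snrpd2 with Qpctl, Snrpd3 with Gucd1, U2af1l4 with the gamma-secretase subunit gene Psenen, Ddx54 with Rita1 and Ddx49 with the coatomer subunit gene Cope. Also shared were the peaks of Hnrnpc with Rpgrip1, Hnrnpd with 4930524J08Rik, Hnrnpk with Rmi1, Hnrnpul2 with Ttc9c, Hnrnph2 with Gla and Hnrnpm with Marchf2. Snrpa shared its peak with BC024978, U2af2 with Ccdc106, Rbm14 with Gm21992, Rbm18 with Mrrf and Ddx42 with Ccdc47. Values given below for genes with a shared peak are those of the shared peak. Rbm4b, Rbm4 and Rbm14 had separate peaks within 55351 bases of each other on chromosome 19. The sources used here do not give how reads that match related genes equally well were placed.

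Peak height was compared per kilobase of peak, in reads per 10000 library reads averaged over the 4 libraries. The 49 peaks had a median of 7.90 per kilobase, against 7.54 for the 1983 gene-end peaks. The densest were Hnrnpa1 at 16.4 and Snrpd2, a core Sm protein gene, at 16.0, which ranked 15 and 18 among the gene-end peaks. Prpf3, a protein of the U4/U6 particle, was the sparsest at 3.41. By subfamily the median per kilobase was 8.48 for Srsf, 9.57 for Sf3, 11.2 for Snrp, 9.28 for Hnrnp, 9.64 for U2af, 5.22 for Prpf, 7.63 for Rbm, 7.16 for Ddx and 7.36 for Dhx.

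The comparison of sgPrdm12 with sgNTC addresses, by its labels, whether accessibility differs in cells given the Prdm12 guide. No splicing factor or helicase peak passed the test. The edgeR quasi-likelihood test, run on all peaks with enough reads, took in 28 of the 49 peaks and called 0 higher and 0 lower at an adjusted p of 0.05, where it called 0 of 1125 tested peaks (0%). At an unadjusted p of 0.05 it returned 1 member peak, Rbm7, against 57 of 1125 (5.07%), and DESeq2, run on all 49, returned 0, against 28 of 3186 peaks. The adjusted p of the 28 peaks lay between 0.93 and 1.00 (edgeR, adjusted over all tested peaks), and their median standard error of 0.35 on the log2 scale exceeded their median absolute log2 fold change of 0.23.

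The log2 fold change was below 0 at 20 of the 28 tested peaks and above 0 at 8, with a median of -0.21, against 539 below and 586 above and a median of 0.02 over all 1125. Without the count filter, which admits a peak that is high in 1 group alone, it was below 0 at 36 of 49 peaks with a median of -0.27, against 1568 of 3186 and 0.01. These are descriptions, and peaks near 0 changed sign with the scaling.

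Scaled by library total, both sgPrdm12 libraries lay below both sgNTC libraries at 11 of the 28 tested peaks (237 of 1125 tested peaks, 21.1%) and above them at 0 (150 of 1125, 13.3%). With TMM scaling the count was 8 below and 0 above, against 18% and 16.4% of tested peaks. Over all 49 peaks, filtered or not, it was 16 below and 0 above by library total, against 22.6% and 12.1% of the 1983 gene-end peaks. The 11 peaks separate by library total were at Sf3a2, Snrpd2, Hnrnpa1, Hnrnpc, Hnrnpd, Hnrnpul1, Rbm4, Rbm7, Ddx41, Ddx49 and Ddx54. Of these, Snrpd2, Hnrnpul1 and Ddx49 overlapped with TMM scaling.

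**Figure D3:**
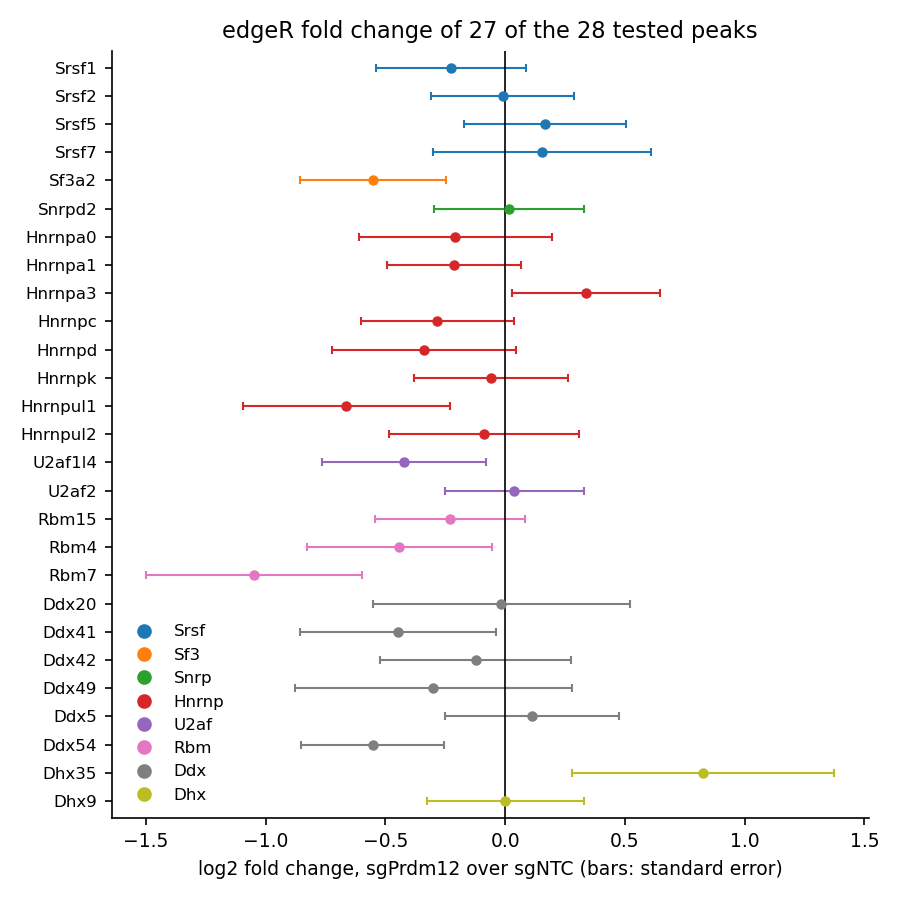
The log2 fold change of sgPrdm12 over sgNTC from edgeR (x axis) for 27 of the 28 tested peaks (y axis, gene symbols, coloured by prefix); bars are standard errors. Points run from -1.05 at Rbm7 to 0.83 at Dhx35, most lie left of 0, and none passed the adjusted threshold.

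Together the 49 peaks held 2.29% of reads in sgPrdm12 replicate 1 (95% Wilson interval 2.12 to 2.47) and 1.93% in replicate 2 (1.75 to 2.13). They held 2.55% in sgNTC replicate 1 (2.37 to 2.73) and 2.52% in replicate 2 (2.40 to 2.65). The intervals cover counting error only, not the spread between libraries, and they treat reads as independent, which reads copied by PCR are not. The means were 2.11% ± 0.25 in sgPrdm12 and 2.53% ± 0.02 in sgNTC (SD, n = 2 libraries each), and the groups did not overlap. The ratio of sgPrdm12 to sgNTC was 0.90 in batch 1 and 0.77 in batch 2. Over all gene-end peaks together the ratios were 1.05 in batch 1 and 0.87 in batch 2. As a share of reads in gene-end peaks, the members held 3.11% and 2.98% in sgPrdm12 against 3.64% and 3.40% in sgNTC, which gives ratios of 0.86 and 0.88. In reads per 10000 the difference of the means was -42.3, and -24.5 without sgPrdm12 replicate 2 and -60.1 without sgPrdm12 replicate 1. No test was made of this sum, since the members were chosen with earlier results known.

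**Figure D4:**
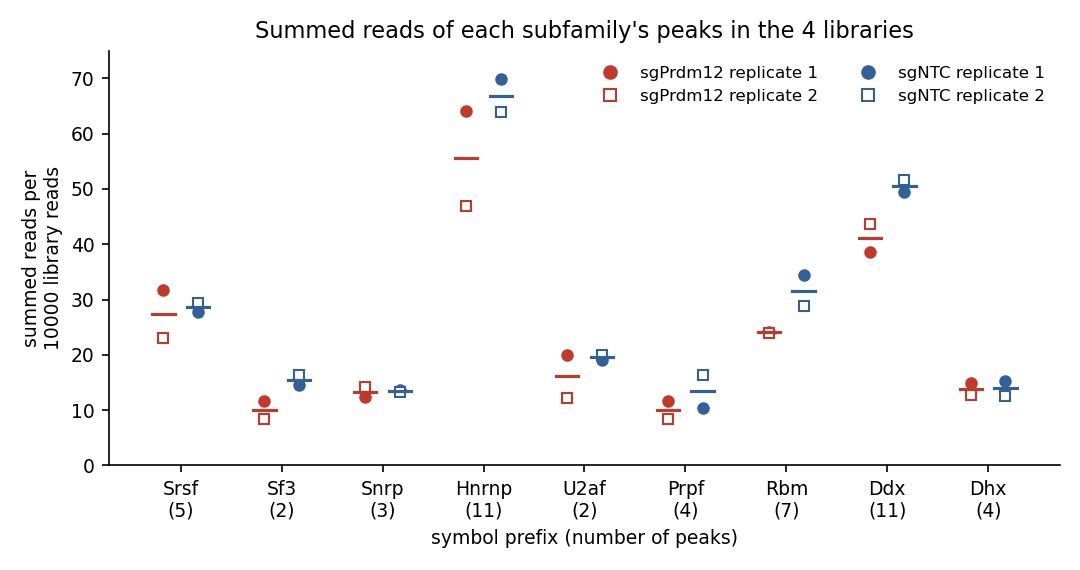
Summed reads of each subfamily's peaks per 10000 library reads (y axis) by symbol prefix (x axis, with the number of peaks), for each sgPrdm12 library (red, left) and sgNTC library (blue, right); filled circles are replicate 1, open squares replicate 2 and short lines group means. The groups do not overlap for Sf3, Rbm and Ddx and overlap for the other 6; with 2 libraries against 2, even separate groups cannot go below a two-sided exact permutation p of 0.333.

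Among the SR protein genes, the Srsf peaks overlapped between groups. Srsf proteins bind exon enhancers and recruit the early spliceosome. The 5 peaks together held 31.7 and 23.0 reads per 10000 in sgPrdm12, against 27.8 and 29.4 in sgNTC, a mean of 27.3 ± 6.13 against 28.6 ± 1.15 (SD, n = 2). The direction differed between batches, with sgPrdm12 minus sgNTC at 3.85 in batch 1 and -6.44 in batch 2. All gene-end peaks together also differed this way, with ratios of sgPrdm12 to sgNTC of 1.05 and 0.87, against 1.14 and 0.78 for Srsf. Srsf1 (chromosome 11, 88047189 to 88047864), the founding SR protein gene, held 22 and 12 reads in sgPrdm12 against 29 and 43 in sgNTC, with a log2 fold change of -0.23 ± 0.31 (SE). Srsf2, Srsf5 and Srsf7 had 25 and 15, 24 and 10, and 14 and 6 reads in sgPrdm12, against 20 and 55, 15 and 41, and 10 and 23 in sgNTC. Their log2 fold changes were -0.01, 0.16 and 0.15. At these 3 genes scaled reads were higher in sgPrdm12 in batch 1 and lower in batch 2. Srsf10, a splicing repressor when dephosphorylated, had 7 and 4 reads against 6 and 9 and was below the filter. Scaled, that was 2.41 and 1.96 per 10000 in sgPrdm12 against 2.09 and 1.55 in sgNTC, higher in sgPrdm12 within each batch.

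The branch point genes Sf3a2 and Sf3b2 were lower in sgPrdm12 in sum, at 11.7 and 8.32 reads per 10000 against 14.6 and 16.4 in sgNTC. Sf3a2 (chromosome 10, 80798099 to 80798853) encodes a subunit of the SF3a complex that joins the U2 particle. It held 26 and 11 reads in sgPrdm12 against 34 and 65 in sgNTC, or 8.95 and 5.39 per 10000 against 11.8 and 11.2. The groups did not overlap, and edgeR gave a log2 fold change of -0.55 (SE 0.30, adjusted p = 0.93). It was -0.92 without sgPrdm12 replicate 1 and -0.39 without sgPrdm12 replicate 2. Without the Sf3a2 peak, which Plekhj1 shares, the Sf3 difference of -5.47 reads per 10000 became -1.13. Sf3b2, an SF3b subunit gene, held 8 and 6 reads against 8 and 30 and was below the filter. Scaled, that was 2.75 and 2.94 per 10000 against 2.78 and 5.17, overlapping between groups.

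The Snrp peaks had about the same summed reads in both groups. Snrpd2 (chromosome 7, 19149336 to 19149771) held 20 and 14 reads in sgPrdm12 against 20 and 42 in sgNTC, or 6.89 and 6.85 per 10000 against 6.96 and 7.23. The groups were separate by library total, but only just, and with TMM scaling the log2 fold change was 0.02 ± 0.31 (SE); its sign changed with the scaling. Snrpd3, the gene of another member of the Sm ring, held 9 and 6 reads against 14 and 18, or 3.10 and 2.94 per 10000 against 4.87 and 3.10. Snrpa, which encodes the A protein of the U1 particle, held 7 and 9 against 5 and 17, or 2.41 and 4.41 per 10000 against 1.74 and 2.93. The 3 Snrp peaks summed to 12.4 and 14.2 per 10000 in sgPrdm12 and 13.6 and 13.3 in sgNTC, so the groups overlapped.

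The Hnrnp genes had the most reads, from 11 peaks. They summed to 64.0 and 47.0 per 10000 in sgPrdm12 against 69.9 and 63.9 in sgNTC, a mean of 55.5 ± 12.1 against 66.9 ± 4.26 (SD, n = 2). The groups overlapped by a narrow margin, and sgPrdm12 was lower in both batches, by ratios of 0.92 and 0.74. Without sgPrdm12 replicate 2 the difference of the means went to -2.86, against -11.4 with it. Of the 8 tested peaks, 7 had a log2 fold change below 0.

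Hnrnpa1, the shared Cbx5 peak, held 13.4 and 9.79 reads per 10000 in sgPrdm12 against 15.7 and 13.6 in sgNTC. The groups were separate by little and the log2 fold change was -0.21 ± 0.28 (SE). Hnrnpa2b1, the shared Cbx3 peak, held 4 and 4 reads in sgPrdm12 against 9 and 16 in sgNTC and was below the filter, with 1.38 and 1.96 per 10000 against 3.13 and 2.76. Neither peak passed the adjusted threshold in any fit that held it. Hnrnpa3 (chromosome 2, 75658801 to 75659704), another gene of this type, went the other way in batch 1 only, with 12.7 and 5.87 per 10000 against 8.70 and 7.75 and a log2 fold change of 0.34 ± 0.31.

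Hnrnpul1 (chromosome 7, 25754945 to 25755286), a relative of the scaffold protein SAF-A, had the lowest log2 fold change of the Hnrnp peaks that passed the filter. It held 2.07 and 4.41 reads per 10000 in sgPrdm12 against 5.57 and 4.82 in sgNTC, for which edgeR gave -0.66 ± 0.43 on the log2 scale (adjusted p = 0.97). Nearly all of that difference was in batch 1, where the log2 ratio was -1.43, against -0.13 in batch 2. The fold change was -0.04 without sgPrdm12 replicate 1 and -1.32 without sgPrdm12 replicate 2. Hnrnpc, which binds uridine runs, held 7.57 and 4.41 against 8.00 and 7.92, and Hnrnpd, an AU-rich element binder also called AUF1, held 4.13 and 3.43 against 5.57 and 4.82. At both the groups were separate, with log2 fold changes of -0.28 ± 0.32 and -0.34 ± 0.38. Hnrnpk, Hnrnpa0 and Hnrnpul2 overlapped between groups, with log2 fold changes of -0.06, -0.21 and -0.09. Hnrnph2 and Hnrnpm were below the filter and held 9 and 2 reads, and 9 and 4 reads, against 9 and 13, and 4 and 18. Scaled, Hnrnph2 held 3.10 and 0.98 per 10000 against 3.13 and 2.24, and Hnrnpm 3.10 and 1.96 against 1.39 and 3.10. The groups overlapped at both.

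The U2AF genes had wide peaks. U2af2 (chromosome 7, 5061159 to 5062062), which encodes the subunit that binds the polypyrimidine tract, held 10.3 and 9.30 reads per 10000 in sgPrdm12 against 8.35 and 11.2 in sgNTC. The groups overlapped, with a log2 fold change of 0.04 ± 0.29 (SE). U2af1l4, an alternative small subunit also called U2AF26, held 9.64 and 2.94 against 10.8 and 8.78. Its sgPrdm12 replicate 2 stood apart at 6 reads, and the log2 fold change was -0.42 ± 0.34, but -0.03 without that library and -1.52 without sgPrdm12 replicate 1.

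The Prpf peaks described here were below the filter. Prpf3 and Prpf38b held 1 and 1, and 6 and 1 reads in sgPrdm12, against 2 and 11, and 7 and 13 in sgNTC. Prpf39, a U1-associated protein, held 12 and 4 against 8 and 19. Scaled, Prpf3 held 0.34 and 0.49 per 10000 against 0.70 and 1.89, and Prpf38b 2.07 and 0.49 against 2.43 and 2.24. Prpf39 held 4.13 and 1.96 per 10000 against 2.78 and 3.27, overlapping between groups and higher in sgPrdm12 in batch 1. The Prpf peaks in sum also overlapped between groups.

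The Rbm peaks were lower in sum in sgPrdm12, at 24.1 and 24.0 reads per 10000 against 34.4 and 28.8 in sgNTC (means 24.0 ± 0.08 and 31.6 ± 4.01; SD, n = 2). The groups did not overlap, with ratios of 0.70 in batch 1 and 0.83 in batch 2. The difference of the means, -7.55, became -4.71 without sgNTC replicate 1 and -10.4 without sgNTC replicate 2. Rbm7 (chromosome 9, 48495087 to 48495796) encodes a subunit of the complex that feeds nuclear RNA to the exosome, and its peak is shared with Gm5617. It held 9 and 3 reads in sgPrdm12 against 14 and 32 in sgNTC, or 3.10 and 1.47 per 10000 against 4.87 and 5.51.

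The log2 fold change at Rbm7 was -1.05 ± 0.45 (SE), the lowest of the 28 peaks, with an unadjusted p of 0.028 and an adjusted p of 0.93 (edgeR). Scaled reads were lower in sgPrdm12 in both batches, by log2 ratios of -0.65 and -1.91. The fold change was -1.66 without sgPrdm12 replicate 1 and -0.80 without sgPrdm12 replicate 2. Rbm15, an adaptor of the m6A methylation machinery, held 7.23 and 8.81 per 10000 against 12.2 and 8.27, overlapping, with a log2 fold change of -0.23 ± 0.31. Rbm4, a splicing regulator, held 4.13 and 2.94 against 5.22 and 5.17, a log2 fold change of -0.44 ± 0.39. Of the peaks below the filter, Rbm4b held 6 and 1 reads against 14 and 6, and Rbm14, a paraspeckle protein gene, 8 and 4 against 5 and 24. Scaled, Rbm4b held 2.07 and 0.49 per 10000 against 4.87 and 1.03, and Rbm14 2.75 and 1.96 against 1.74 and 4.13. The groups overlapped at both. Rbm18 held 8 and 10 reads against 8 and 16, and Rbm39, a splicing coactivator, 6 and 7 reads against 8 and 11. In batch 2 scaled reads at Rbm18 and Rbm39 were higher in sgPrdm12, by log2 ratios of 0.83 and 0.86, against -0.01 and -0.43 in batch 1.

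The DEAD-box genes were lower in sum in sgPrdm12, at 38.6 and 43.6 reads per 10000 against 49.4 and 51.7 in sgNTC (means 41.1 ± 3.54 and 50.5 ± 1.61; SD, n = 2). The groups did not overlap, with ratios of 0.78 and 0.84 in the batches. Ddx54 (chromosome 5, 120612395 to 120613314), a nucleolar helicase gene, held 20 and 19 reads in sgPrdm12 against 36 and 70 in sgNTC, or 6.89 and 9.30 per 10000 against 12.5 and 12.1. The groups were separate, with edgeR's log2 fold change at -0.55 and its SE at 0.30 (adjusted p = 0.93). That value was -0.23 without sgPrdm12 replicate 1 and -0.87 without sgPrdm12 replicate 2. Ddx54 alone made up 8.09 ± 1.71 of the sgPrdm12 mean and 12.3 ± 0.33 of the sgNTC mean.

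Ddx41, which acts in splicing and in sensing of DNA, held 3.79 and 4.90 reads per 10000 in sgPrdm12 against 6.26 and 6.03 in sgNTC, a log2 fold change of -0.45 ± 0.41 (SE). Ddx49 held 2.41 and 3.43 against 3.83 and 3.62, with -0.30 ± 0.58. By library total the groups were separate at both, but with TMM scaling they overlapped at Ddx49. Ddx5, a coregulator and splicing helicase whose peak Cep95 shares, held 7.57 and 4.41 against 4.87 and 6.72, and Ddx42, a helicase linked to SF3B, 4.48 and 4.90 against 4.17 and 6.03. Ddx20, also called Gemin3, held 4.48 and 1.96 against 2.43 and 4.31. The groups overlapped at these 3, with log2 fold changes of 0.11, -0.12 and -0.02.

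The DEAD-box peaks below the filter were those of Ddx10, Ddx17, Ddx19a, Ddx39a and Ddx59. Ddx10, a ribosome assembly helicase, held 3 and 2 reads in sgPrdm12 against 7 and 15 in sgNTC. Ddx17, the paralog of Ddx5, held 5 and 6 against 14 and 15. Ddx39a, an mRNA export helicase, and Ddx59 held 9 and 7, and 8 and 7, against 9 and 24, and 6 and 19. Scaled, Ddx39a held 3.10 and 3.43 per 10000 against 3.13 and 4.13, and Ddx59 2.75 and 3.43 against 2.09 and 3.27. Ddx17 held 1.72 and 2.94 per 10000 against 4.87 and 2.58, overlapping between groups and higher in sgPrdm12 in batch 2.

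The DEAH-box peaks overlapped between groups in sum, at 14.8 and 12.7 reads per 10000 in sgPrdm12 and 15.3 and 12.6 in sgNTC, a difference of -0.17 whose sign rests on single libraries, with -1.54 to 1.195 when 1 was left out. Dhx35 (chromosome 2, 158794673 to 158795027), a spliceosome-associated helicase gene, had the highest log2 fold change of the 28 peaks, 0.83 with an SE of 0.55 (edgeR, adjusted p = 0.97). It held 3.44 and 6.36 per 10000 in sgPrdm12 against 1.39 and 3.62 in sgNTC. The groups overlapped, although sgPrdm12 was higher within each batch, by log2 ratios of 1.31 and 0.82. The fold change was 0.30 without sgPrdm12 replicate 2, 0.47 without sgNTC replicate 1, 1.34 without sgPrdm12 replicate 1 and 1.76 without sgNTC replicate 2. Dhx9, a nuclear RNA and DNA helicase, held 6.54 and 2.94 against 7.30 and 3.96, so its batches differed more than its groups. The log2 fold change at Dhx9 was 0.00. Its SE was 0.33 in this fit and 0.63 with median-ratio size factors, so the SE is not stable at a coefficient this near 0. Dhx15, which takes the used spliceosome apart, held 4 and 7 reads against 11 and 14. Scaled, that was 1.38 and 3.43 per 10000 against 3.83 and 2.41, overlapping between groups and higher in sgPrdm12 in batch 2. Dhx34, a nonsense-mediated decay factor, held 10 and 0 reads against 8 and 15, where 0 reads allow up to 1.47 per 10000 in that library.

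**Figure D5:**
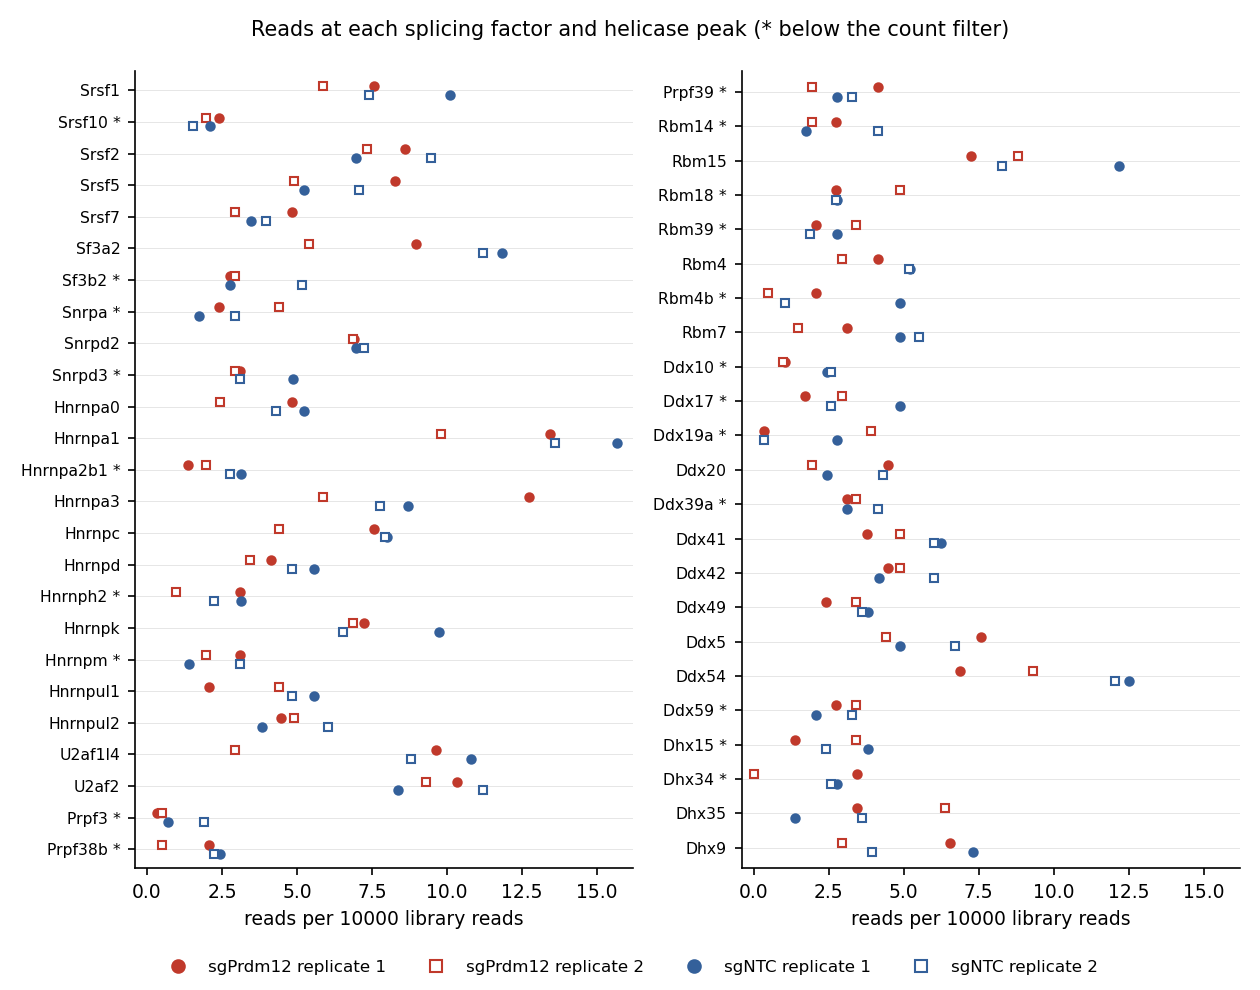
Reads per 10000 library reads (x axis) in 48 of the 49 peaks (y axis, gene symbols by prefix; an asterisk marks peaks below the count filter), with each sgPrdm12 library in red above the sgNTC libraries in blue; filled circles are replicate 1 and open squares replicate 2. Both red points lie left of both blue points at 11 of the 28 peaks that passed the count filter (21.1% of all 1125 such peaks) and right of them at 0 (13.3%).

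Other genes of the same machinery, listed without a member prefix, were read from the same fit. Of 81 spliceosome components and SR kinase genes, 29 had a peak (35.8%) and 17 were tested. None passed at the adjusted threshold (edgeR), 1 had an unadjusted p under 0.05, 8 had a log2 fold change above 0 and 9 below, and the median was -0.01. Snrnp35, of the minor spliceosome, had 0.81 ± 0.39 and Srrm1, an SR-related matrix protein gene, 0.82 ± 0.43 (SE, adjusted p = 0.93 for both by edgeR), while Sf1, the first branch point binder, had -0.30 ± 0.30. Of 36 other splicing regulators and RNA-binding proteins, 17 had a peak (47.2%) and 12 were tested, 7 above 0 and 5 below with a median of 0.03, and 0 passed, with 1 unadjusted p under 0.05. That was Raver1, a partner of the polypyrimidine tract binder, with 24 and 23 reads in sgPrdm12 against 13 and 27 in sgNTC and a log2 fold change of 1.12 ± 0.33 (adjusted p = 0.73, edgeR). The polypyrimidine tract binder Ptbp1 had 0.32 ± 0.43 and Tardbp, also called TDP-43, -0.50 ± 0.41. Of 17 RNA helicases with other names, 6 had a peak and 3 were tested: Eif4a3 at -0.25, Eif4a1 at 0.00 and Upf1 at 0.52. None of these 3 helicase peaks had an unadjusted p under 0.05. The medians of the 3 lists lay nearer 0 than the -0.21 of the 28 member peaks, a difference that was not tested.

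In the authors' deposited table the log2 difference, treated minus control, ran from -1.74 to 0.88 over the 49 peaks with a median of -0.40, against a median of -0.14 over all 3187 peaks. A 95% normal interval around the difference, from the standard error in the authors' deposited table, excluded 0 at 0 of the 49 peaks and at 1 of 3187.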

How the data were processed

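ATAC-seq was measured in 4 libraries of CD8+ T cells, 2 with the sgPrdm12 guide and 2 with sgNTC. The read counts per peak were deposited by the authors as whole numbers and were taken as unnormalized. Also deposited are the authors' log2 means per group, log2 difference and its standard error, deposited without a stated formula. The build is GRCm38, and the tools named are MACS2, DiffBind, ChIPseeker, HOMER, Bowtie2, Picard and cutadapt, per the submitters' processing notes; the sources used here do not give versions or how peaks were called. Genes and promoter windows came from RefSeq tables of GRCm38.p6. Levels are reads per 10000 reads of the library total over all peaks. All peaks were tested together by quasi-likelihood in edgeR 4.0.16 under R 4.3.3, with TMM scaling and filterByExpr at a minimum count of 10. The fit was robust, with a group term alone and Benjamini-Hochberg adjustment. It was tried on simulated counts whose set changes were larger than any log2 fold change of the members. That trial does not show that changes of the size seen here would be found. DESeq2 1.42.0 was an alternative. Standard errors are the coefficient over the square root of F.

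The members, lists and tests were chosen with earlier results of these data known. The naming rule was every member with a peak, less 1 that is not reported here and enters only sums and counts, the other gene of a shared peak, and tested peaks of the other lists; those of the last kind were picked after their values were seen. Replicate numbers pair the libraries through the labelled batch, and deviations of same-numbered libraries correlated at 0.06 over 1125 peaks. Scaling by gene-end reads was added after seeing the data.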

Additional observations from a re-analysis of the deposited data

How the results depend on the processing

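No peak, member or other, passed the adjusted threshold under any alternative run: median-ratio size factors, library total alone, no count filter, DESeq2, the replicate block, or leaving out each library in turn. At an unadjusted p of 0.05 the replicate block returned 47 of 1125 peaks and 1 of 28 member peaks, and gave -1.07 at Rbm7. It changed no call. With the replicate block, calls stayed at 0 over all peaks and at 0 among members, and log2 fold changes were below 0 at 18 of 28. Depth limits single peaks: member peaks held 0 to 79 reads per library.

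Of 27 tested members, 12 kept the sign of their log2 fold change in every alternative run, and 15 did not; none of these passed a test, and the cause was not tested. DESeq2 gave 0.040 at Srsf2, 0.026 at Ddx20 and -0.10 at Dhx9. The replicate block gave 0.042 at Srsf2, 0.021 at Hnrnpul2, 0.0017 at Ddx20 and -0.20 at Dhx9. Library total alone gave -0.013 at Snrpd2 and -0.028 at Dhx9, no filter -0.032 at Snrpd2, -0.0080 at U2af2 and -0.042 at Dhx9, and median-ratio factors -0.0012 at Dhx9. Leaving out each library gave ranges of -0.15 to 0.23 at Srsf2, -0.22 to 0.39 at Srsf5, -0.20 to 0.30 at Srsf7, -0.091 to 0.11 at Snrpd2, -0.75 to 0.020 at Hnrnpa0, -0.29 to 0.61 at Hnrnpa3, -0.44 to 0.20 at Hnrnpk and -0.28 to 0.30 at Hnrnpul2. They were -0.095 to 0.26 at U2af2, -0.59 to 0.031 at Rbm15, -0.70 to 0.45 at Ddx20, -0.30 to 0.18 at Ddx42, -0.65 to 0.057 at Ddx49, -0.28 to 0.35 at Ddx5 and -0.64 to 0.40 at Dhx9. Of the 12 that kept their sign, leaving out 1 library moved 11 by over 1.5 times, all but Rbm4. Beside the values given with each gene, the ranges were -0.54 to -0.034 at Srsf1, -0.39 to -0.12 at Hnrnpa1, -0.68 to -0.11 at Hnrnpc, -0.52 to -0.25 at Hnrnpd and -0.73 to -0.15 at Ddx41. Among summed reads, the difference ran from -5.63 to 3.04 for Srsf, -1.02 to 0.78 for Snrp and -7.32 to 0.42 for U2af.

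The summed reads of all members (sgPrdm12 minus sgNTC) stayed below 0 under every scaling, window and left-out library. Without peaks shared with genes outside the list, 25 peaks remained, and the difference per 10000 reads was -15.8 for all members (means 88.0 and 103.8), -1.13 for Sf3, -2.001 for Hnrnp and -4.25 for Ddx; fewer peaks enter these sums. The same choice left 25 genes with a peak in all, 3 of Srsf, 1 of Sf3, 0 of Snrp, 3 of Hnrnp, 0 of U2af, 4 of Rbm and 7 of Ddx. Windows of 500 and 2000 bases gave 46 and 51 member genes with a peak (28.8% and 31.9%, against 10.7% and 12.3% of all genes).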

Other observations

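Some values at single peaks ran in opposite directions in the batches. The peak of Ddx19a, an mRNA export helicase gene (chromosome 8, 110997906 to 110998181), held 1 and 8 reads in sgPrdm12 against 8 and 2 in sgNTC. The log2 ratio of scaled reads was -3.01 in batch 1 and 3.51 in batch 2, from 1 library per group in each, and the peak was below the filter of the test. At Hnrnpm the log2 ratio was 1.16 in batch 1 and -0.66 in batch 2, and at Ddx20 it was 0.88 and -1.14. At Ddx10 both batches gave a low ratio, -1.24 and -1.40 on the log2 scale, from 3 and 2 reads in sgPrdm12 against 7 and 15 in sgNTC, a peak below the filter; no member passed the adjusted threshold in the fits without a filter.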
